A study of Strongylocentrotus purpuratus and Patiria miniata with 14 samples.

Results

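The layout of open chromatin at mesenchyme blastula was compared between 2 echinoderms, *Strongylocentrotus purpuratus*, a sea urchin, and *Patiria miniata*, a sea star. The libraries were chosen by their labels, as all those taken at 24 hpf (hours post fertilization), which gave 4 of 14 libraries: 2 replicates of sea urchin and 2 of sea star. Each library was made from wild type whole embryos. ATAC-seq was used, which marks accessible DNA by cutting it with a transposase that carries sequencing adapters. Every cell type of the embryo contributed to a single profile, and no cell type can be told apart from another. No embryo was treated or altered, and the stage name mesenchyme blastula is the study's own for both species. Nothing in the sources says that the replicates came from separate cultures, so their spread may be technical.

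In the sea urchin, the mesenchyme blastula is the stage at which the primary mesenchyme cells, which will build the larval skeleton, leave the epithelium and enter the blastocoel. The sea star forms no larval skeleton and has no such ingressing lineage, although both embryos specify endoderm, mesoderm and ectoderm by related gene regulatory networks at this time. Open regions are where transcription factors reach promoters and enhancers, and genes under elaborate control tend to be surrounded by many of them.

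Peaks are open regions called by MACS2 in each library on its own, and a peak's summit is the base where its signal is highest. The coordinates of the 2 genomes (Spur_5.0 for the sea urchin, Pmin_3.0 for the sea star) do not correspond, so the peaks themselves could not be matched across the genome. What was compared is their arrangement, namely how wide they are, how far apart neighbouring summits lie, how many fall in each 50 kb window, and what share lies in runs, a run being at least 3 summits within 5 kb. Over all stages, the peaks of a species reached over 905 Mb on 191 scaffolds in the sea urchin and 606 Mb on 30 scaffolds in the sea star, a ratio of 1.49. At 24 hpf alone, 108 and 107 scaffolds carried a peak in the sea urchin and 30 in both sea star libraries. The windows were laid over the reach of all stages, which held 18039 and 12099 complete windows.

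The sea star lists were longer. The sea urchin libraries held 39503 and 31103 nuclear peaks and the sea star libraries 59009 and 63148, so both sea star lists exceeded both sea urchin lists. Per unit of genome this came to 43.6 and 34.4 peaks per Mb in sea urchin against 97.4 and 104 peaks per Mb in sea star. The sequence under peaks was 0.985% and 0.716% of the stretch reached in sea urchin and 2.85% and 2.96% in sea star. Read totals stated by the study were lower for both sea urchin libraries than for both sea star libraries, and their part in the length of the lists was not tested.

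Each measure was therefore taken on 3 kinds of list. Full lists are the peaks as deposited, without the mitochondrial genome. Lists of equal numbers hold the 31103 peaks of lowest p-value in each library, which is 100% of the shortest list, 78.7% of the other sea urchin list and 52.7% and 49.3% of the sea star lists. Lists of equal peaks per Mb cut the sea star further, to its strongest 20815 peaks (35.3% and 33.0% of the lists), so that both species had 34.4 peaks per Mb. The last 2 kinds thus set nearly whole sea urchin lists against the stronger part of the sea star lists. With 2 libraries against 2, there are 6 ways to divide the libraries and a two-sided exact permutation test cannot give a p below 0.333, so no comparison here can pass 0.05, and a difference is described by whether the replicates of the species overlap.

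**Figure D1:**
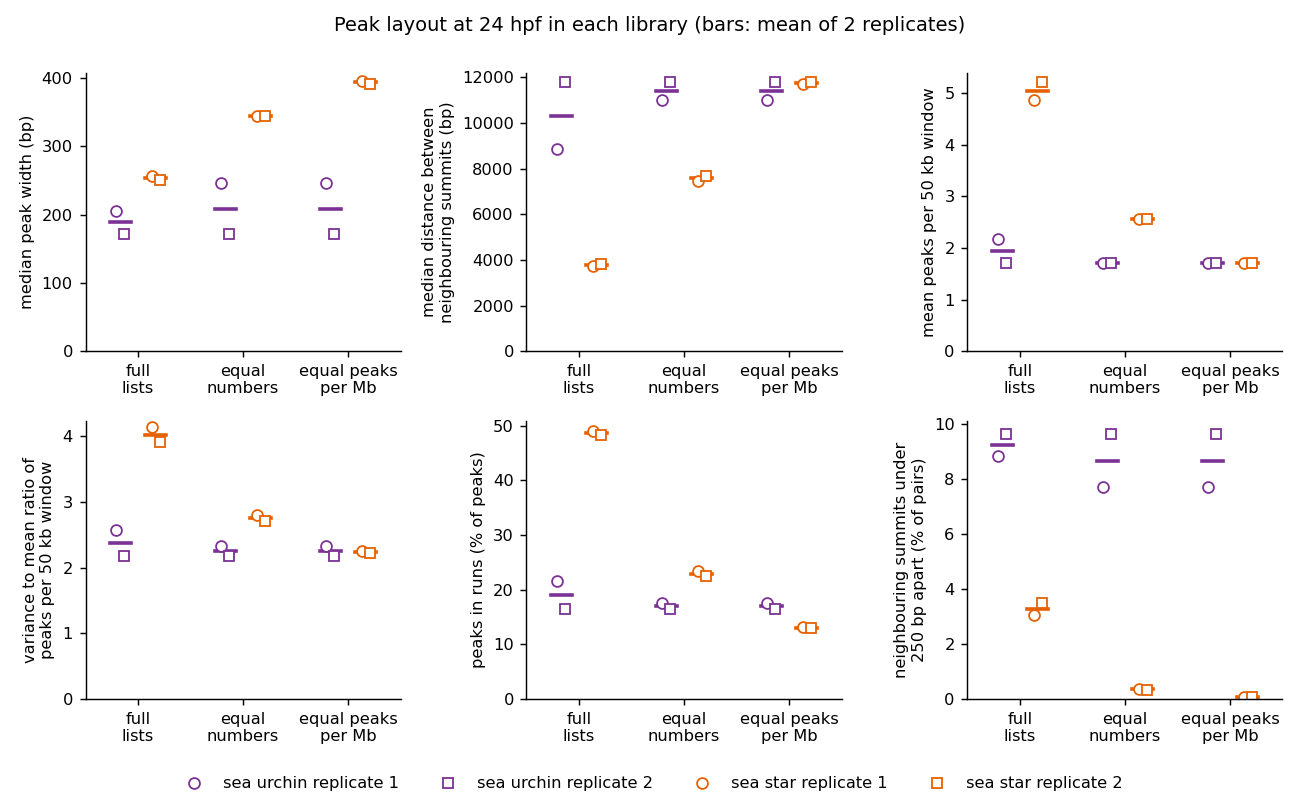
The 6 measures of peak layout at 24 hpf, 1 panel each, on full lists, on equal numbers of peaks (31103) and on equal peaks per Mb (34.4). Circles are replicate 1, squares replicate 2 and bars the mean of both, in purple for sea urchin and orange for sea star. On full lists the species lie apart in every panel, whereas at equal peaks per Mb spacing and the variance to mean ratio overlap, and the order of the share in runs is turned.

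Sea star peaks were wider than sea urchin peaks on every kind of list. On full lists the median width was 206 and 171 bp in the sea urchin libraries and 256 and 251 bp in the sea star libraries. The mean of the medians was 188.5 ± 24.7 bp in sea urchin and 253.5 ± 3.54 bp in sea star (SD, n = 2 libraries each), a ratio of 1.34 with no overlap (exact permutation p = 0.333, the smallest possible). The gap between the nearest libraries was 1.29 times the larger of the replicate differences. On equal numbers the medians were 246 and 171 bp in sea urchin and 344 bp in both sea star libraries (ratio 1.65, exact permutation p = 0.333, n = 2 libraries each). The sea star peaks left out of the equal lists were its weaker ones, which were also narrower.

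Both ends of the distribution of widths differed between the species. Peaks at the shortest width listed, 100 bp, made up 12.6% and 14.5% of the sea urchin lists but 4.90% and 5.69% of the sea star lists. The study's peak calling extended reads to this same length. Peaks under 150 bp were 40.9% and 46.3% of the sea urchin peaks and 20.5% and 21.9% of the sea star peaks. At the wide end, 5 peaks in each sea urchin library were at least 1000 bp, against 271 and 229 in the sea star libraries.

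Median width rose with peak strength, so width was read within classes of fold enrichment. This is the signal at the summit over the local background as given by the peak caller. In peaks enriched 5 to 7 times the median width was 221 and 207 bp in sea urchin and 278 and 283 bp in sea star. Among peaks enriched 10 to 15 times it was 365 and 348 bp in sea urchin and 436 and 430 bp in sea star. The 1000 strongest peaks of each list had medians of 430 and 398 bp in sea urchin and 558 and 547.5 bp in sea star. Sea star peaks were the wider in each class from 3 upwards and in each set of strongest peaks, with no overlap between species. Fold enrichment is computed within a library and depends on its depth, so equal classes need not mean equal accessibility.

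**Figure D2:**
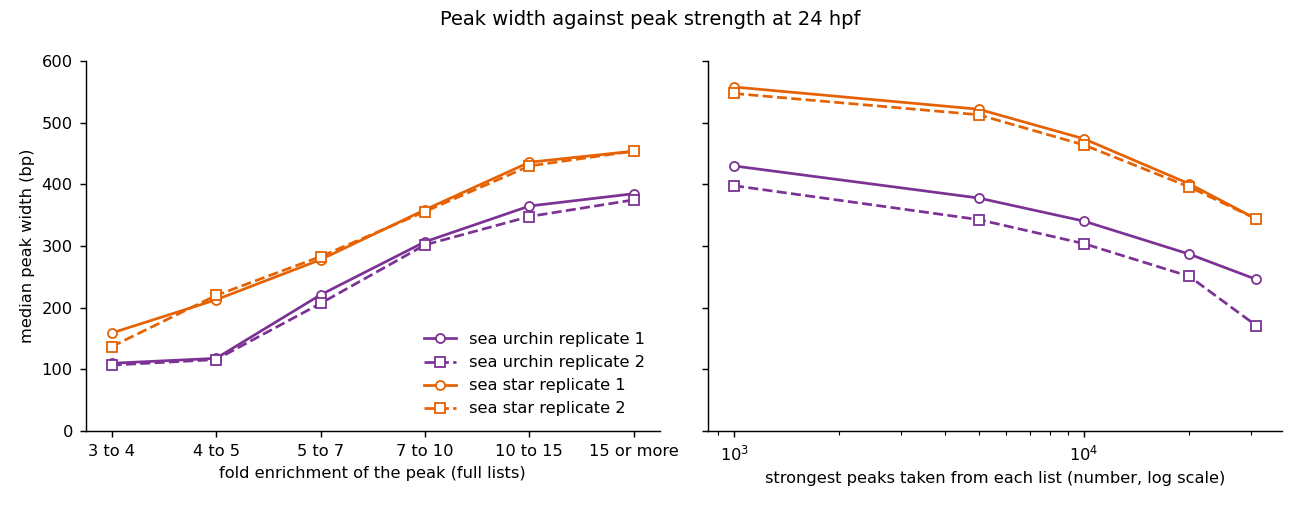
Median peak width (bp) against peak strength in each library at 24 hpf, by class of fold enrichment on full lists (left) and among the strongest peaks of each list (right, log scale). Solid lines with circles are replicate 1 and dashed lines with squares replicate 2. The orange sea star lines lie above the purple sea urchin lines throughout, for example at 558 and 547.5 bp against 430 and 398 bp for the 1000 strongest peaks.

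The widest peaks found in both replicates show the scale. In the sea urchin the widest lay on scaffold NW_022145602.1 from 26243742 to 26245051 (Spur_5.0), 1277 bp wide in replicate 1 and 1298 bp in replicate 2. The next 2 were at NW_022145597.1, from 6146549 to 6147747, with 1199 and 1064 bp, and at NW_022145609.1, from 15940160 to 15941195, with 1027 and 1036 bp. The widest in the sea star spanned 27473128 to 27475000 on NW_024037072.1 (Pmin_3.0), with 1847 and 1846 bp. The next 2, both on NW_024037071.1, ran from 10088777 to 10090591, with 1815 and 1752 bp, and from 5361468 to 5363352, with 1855 and 1650 bp. All 6 had fold enrichments from 5.83 to 12.1, below the highest of their libraries, which were 22.6 to 28.1. The 3 sea star peaks had 5.83 to 7.06, against library medians of 5.14 and 4.98. The sea urchin peaks had 6.57 to 12.1, against library medians of 5.34 and 5.11. The widest peaks were thus not the strongest ones. No annotation of scaffolds was at hand, so the genes at these positions are not named here.

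Neighbouring sea star summits lay closer together. On full lists the median distance from a summit to the next was 8856 and 11783 bp in sea urchin and 3725 and 3807.5 bp in sea star. The means of these medians were 10319.5 ± 2069.7 bp and 3766 ± 58.3 bp (SD, n = 2 libraries each), so sea urchin spacing was 2.74 times that of the sea star, without overlap (exact permutation p = 0.333). On equal numbers the medians were 10992 and 11783 bp against 7465 and 7686 bp, a ratio of 1.503, again without overlap (exact permutation p = 0.333, n = 2 libraries each). That ratio is close to the 1.49-fold difference in the length of genome the same number of peaks was spread over. At equal peaks per Mb the medians were 10992 and 11783 bp in sea urchin and 11705 and 11782 bp in sea star, and the species overlapped (exact permutation p = 1, n = 2 libraries each). When peaks within 100 bp of each other were joined first and the density then made equal, an alternative added after seeing the data, the medians averaged 14464 bp in sea urchin and 13802.5 bp in sea star, a ratio of sea star to sea urchin of 0.954 without overlap (exact permutation p = 0.333, n = 2 libraries each). Once density was the same, the difference in median spacing was thus small, and whether the species overlapped depended on the joining.

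The lists differed at the shortest distances, and in the opposite direction. Summits less than 250 bp from their neighbour made up 8.86% of neighbouring pairs in sea urchin replicate 1 (3490 of 39395, exact binomial 95% interval 8.58 to 9.14%) and 9.66% in replicate 2 (2993 of 30996, 9.33 to 9.99%). In the sea star they made up 3.07% in replicate 1 (1810 of 58979, 2.93 to 3.21%) and 3.50% in replicate 2 (2209 of 63118, 3.36 to 3.65%). These intervals cover counting error only, and neighbouring pairs are not independent. The means were 9.26 ± 0.564% in sea urchin and 3.28 ± 0.305% in sea star (SD, n = 2 libraries each), with a gap between the species of 6.72 times the larger replicate difference (exact permutation p = 0.333). The limit of 250 bp was chosen after the spacing had been seen.

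On equal numbers the contrast in close pairs was larger. They were 7.71% and 9.66% of pairs in sea urchin and 0.377% and 0.341% in sea star, or 2389 and 2993 pairs against 117 and 106. At equal peaks per Mb only 18 and 19 such pairs were left in the sea star lists, 0.0866% and 0.0914% of pairs. Shorter lists leave fewer neighbours to be counted, so the strongest peaks were also set against every summit of their own full list. Of the 1000 strongest peaks, 12 and 23 had another summit within 250 bp in sea urchin and 0 in both sea star libraries. Of the 10000 strongest, 5.96% and 11.85% had one in sea urchin and 0.35% and 0.43% in sea star, against 17.03% and 18.5% of all sea urchin peaks and 5.93% and 6.80% of all sea star peaks. The strongest sea star peaks were also wider, which leaves less room for another summit within 250 bp. In the 10000 strongest, median widths were 340.5 and 304 bp in sea urchin and 474 and 464 bp in sea star. The contrast among strong peaks thus cannot be told apart from that in width.

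**Figure D3:**
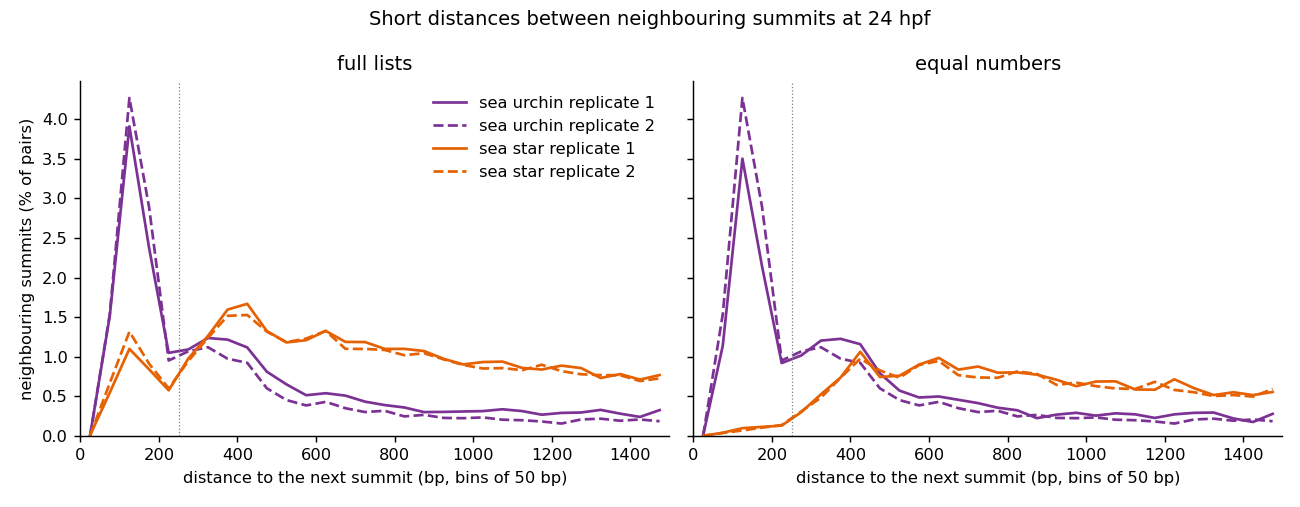
Distance to the next summit (bp, in bins of 50 bp up to 1500 bp) as a percent of neighbouring pairs, on full lists (left) and on equal numbers of peaks (right), for the 2 sea urchin (purple) and 2 sea star (orange) libraries at 24 hpf. The dotted line marks 250 bp. Both sea urchin lines peak at 100 to 150 bp (3.91% and 4.27% of pairs on full lists), and both sea star lines peak at 400 to 450 bp (1.67% and 1.53%).

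The distribution of short distances had a mode at 100 to 150 bp in both sea urchin libraries, with 1541 and 1324 pairs in that bin. The study's peak calling extended reads to 100 bp, which is also the shortest peak width in each full list. Adjoining peaks near that width have summits about as far apart as this mode. Its position therefore cannot be told apart from the setting, whose part was not tested. In the sea star the fullest bin was 400 to 450 bp, with 984 and 964 pairs, and a smaller rise at 100 to 150 bp was also seen on full lists. Beyond 250 bp the full sea urchin lists had a second, lower mode at 300 to 350 bp, of 487 and 347 pairs. The species thus differed in which of the short distances was most common, but the position in the sea star depended on the list. At equal peaks per Mb its fullest bin was 600 to 650 bp, with 148 and 150 pairs. In the sea urchin it stayed at 100 to 150 bp.

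The peaks of close pairs were narrow in both species. In the sea urchin they had a median width of 111 bp in both replicates, against 236 and 212 bp for the other peaks. In the sea star they had 113 and 112 bp, against 263 and 259 bp. Close pairs were selected by the short distance between their summits, which leaves little room for wide peaks. The narrow width thus follows at least in part from the selection and is no separate finding. A typical close pair had peaks barely over the minimum width, with summits 142 to 145 bp apart. Between the peaks 21 to 24 bp were uncovered (both are medians over the libraries). In the sea urchin the fold enrichment of peaks in close pairs was near that of the other peaks. The medians were 5.16 against 5.41 in replicate 1 and 5.12 against 5.11 in replicate 2. In the sea star the fold enrichment was lower (4.34 against 5.14, and 4.21 against 5.06). Of sea urchin peaks in close pairs, 41.8% in replicate 1 and 70.1% in replicate 2 overlapped a peak of the other replicate, against 50.7% and 64.3% of the others. In the sea star libraries 68.7% and 59.3% of such peaks did, against 81.4% and 76.9% of the others. Peaks of close pairs thus overlapped the other replicate less often than other peaks in 3 of the 4 libraries and more often in sea urchin replicate 2.

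Joining peaks that lay within 100 bp of each other took more from the sea urchin lists than from the sea star lists. It left 34783 and 27315 sea urchin peaks (a loss of 11.9% and 12.2%) and 54923 and 58674 sea star peaks (6.92% and 7.08%). The median width after joining was 242 and 231 bp in sea urchin and 266 and 261 bp in sea star. The ratio between the species, taken on the means of these medians, fell from 1.34 to 1.11, and the species still did not overlap.

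Windows of 50 kb held more peaks in the sea star. On full lists a 50 kb window held on average 2.18 and 1.72 peaks in sea urchin and 4.87 and 5.21 in sea star (means 1.95 ± 0.328 and 5.04 ± 0.242, SD, n = 2 libraries each, ratio 2.59, exact permutation p = 0.333). Windows without a peak were 32.6% and 36.7% of the sea urchin windows and 20.8% and 18.2% of the sea star windows. At the dense end, 195 and 43 sea urchin windows (1.08% and 0.238%) held 10 or more peaks, against 1973 and 2182 sea star windows (16.3% and 18.0%). These dense windows held 42.3% and 43.6% of all sea star peaks but 5.48% and 1.51% of the sea urchin peaks. On equal numbers the mean per window is set by the number of windows (1.72 against 2.57) and is no finding.

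The unevenness of the windows was measured by the ratio of the variance to the mean of their peak counts, which is near 1 where peaks fall independently and evenly. It was 2.57 and 2.18 in sea urchin and 4.13 and 3.902 in sea star on full lists (ratio of means 1.69, exact permutation p = 0.333, n = 2 libraries each), so by this measure windows were uneven in both and more so in the sea star. Another measure went the other way. On full lists the fullest 10% of windows held 33.7% and 34.8% of the sea urchin peaks and 28.9% and 27.4% of the sea star peaks. On equal numbers these shares were 35.9% and 34.8% against 32.4% and 32.0%. The variance to mean ratio on equal numbers was 2.32 and 2.18 against 2.80 and 2.71, still without overlap (ratio 1.22, exact permutation p = 0.333, n = 2 libraries each). At equal peaks per Mb it was 2.32 and 2.18 in sea urchin and 2.25 and 2.22 in sea star, and the species overlapped (exact permutation p = 1, n = 2 libraries each). With peaks joined within 100 bp before the density was made equal, it averaged 1.94 in sea urchin and 2.07 in sea star, a ratio of 1.07 without overlap (exact permutation p = 0.333, n = 2 libraries each). On the unjoined lists of equal density the share of empty windows was also alike, 37.7% and 36.7% against 37.2% and 37.1%, and the 10% of windows with the most peaks held 35.9% and 34.8% of the sea urchin peaks and 35.4% and 35.1% of the sea star peaks.

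**Figure D4:**
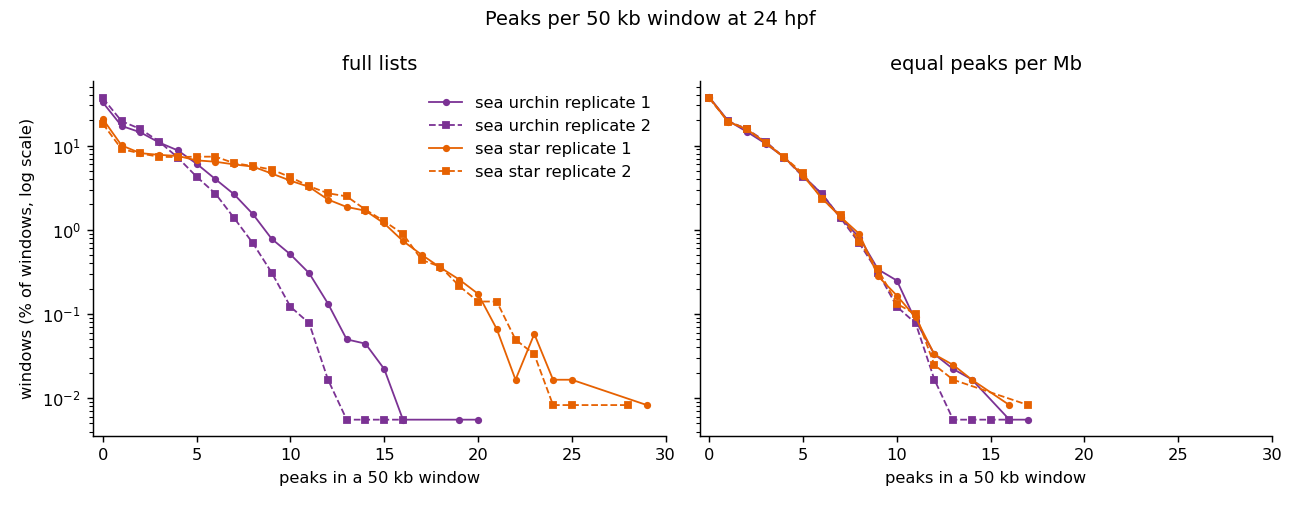
Share of 50 kb windows (percent, log scale) that held each number of peaks at 24 hpf, on full lists (left) and at equal peaks per Mb (right), for the 2 sea urchin (purple) and 2 sea star (orange) libraries. On full lists the sea star lines reach 29 and 28 peaks and the sea urchin lines 20 and 16, while at 34.4 peaks per Mb the 4 lines run together.

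Dense windows lay next to dense windows in both genomes. The correlation of a window's count with that of the next window (Spearman, over neighbouring windows of 1 library, given as a description) was 0.427 and 0.385 in sea urchin and 0.549 and 0.541 in sea star on full lists. At equal peaks per Mb it was 0.366 and 0.385 against 0.421 and 0.416, so the sea star stayed above the sea urchin in this measure without overlap. Density also varied between scaffolds. Over the 21 sea urchin scaffolds of at least 10 Mb it ran from 24.1 to 64.9 peaks per Mb in replicate 1 and from 19.97 to 51.2 in replicate 2. Over the 23 such sea star scaffolds it ran from 32.7 to 129.7 and from 40.3 to 133 peaks per Mb.

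The densest sea urchin window, by the lower of its counts, was from 35150001 to 35200000 on NW_022145606.1, with 15 and 16 peaks. Those from 12450001 to 12500000 on NW_022145601.1, with 12 and 15, and from 18050001 to 18100000 on NW_022145611.1, with 12 and 14, came next. In the sea star the window from 12000001 to 12050000 on NW_024037055.1 held 29 and 28 peaks. Those from 7200001 to 7250000 on NW_024037051.1, with 25 in both replicates, and from 7650001 to 7700000 on NW_024037065.1, with 25 and 23, followed. All 3 of these sea star windows held more peaks in each replicate than any of the 3 sea urchin windows. The longest stretch between summits of either replicate was 1180 kb in the sea urchin, on NW_022145603.1 from 1241694 to 2421709, and 844 kb in the sea star, on NW_024037049.1 from 1660487 to 2504917.

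Runs held a far larger share of the sea star peaks than of the sea urchin peaks. On full lists the share of peaks in runs was 21.7% (95% exact binomial interval 21.3 to 22.1%) and 16.5% (16.1 to 16.95%) in the sea urchin libraries and 49.1% (48.7 to 49.5%) and 48.4% (48.0 to 48.7%) in the sea star libraries. These intervals also cover counting error only, and they are too narrow because the peaks of a run are not independent. The means were 19.1 ± 3.63% and 48.7 ± 0.516% (SD, n = 2 libraries each), 29.6 percentage points apart and without overlap (exact permutation p = 0.333). There were 2531 and 1565 runs in sea urchin and 6885 and 7327 in sea star, or 2.80 and 1.73 against 11.4 and 12.1 per Mb. Runs of 6 or more summits were 2.73% and 1.41% of the sea urchin runs and 16.5% and 15.4% of the sea star runs.

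The longest chain of summits, each within 5 kb of the next, counted 8 summits in replicate 1 and 9 in replicate 2 of the sea urchin, over 18.4 kb on NW_022145601.1 from 7558189 to 7576622. The sea star counterpart counted 27 and 26 summits over 43.0 kb on NW_024037055.1 from 12010778 to 12053801, and it ran through the densest window of that genome. Each chain was picked by the lower count of the replicates over the same interval, so the similar counts are in part set by the choice.

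The order of the species in the share of peaks in runs depended on the list. On equal numbers the sea star share was still the higher, with 23.5% and 22.4% against 17.6% and 16.5% (means 22.9 ± 0.750% and 17.1 ± 0.784%, SD, n = 2 libraries each, exact permutation p = 0.333). Without sea urchin replicate 2, whose list sets the equal number, this difference went from 5.86 to 9.52 percentage points. At equal peaks per Mb it was lower, with 13.1% and 12.9% against 17.6% and 16.5%, and the species did not overlap (exact permutation p = 0.333, n = 2 libraries each). At this density, 35.9% and 45.9% of the sea urchin peaks in runs belonged to a close pair, against 0.695% and 0.744% of those in the sea star. The part of close pairs in the turned order was not tested. When peaks within 100 bp were joined first and the density then made equal, the share in runs was 6.69% on average in sea urchin and 9.43% in sea star (exact permutation p = 0.333, n = 2 libraries each), which put the sea star above the sea urchin again. On full lists after joining it was 9.86% and 5.92% in sea urchin and 41.9% and 40.8% in sea star.

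The replicates of the sea star were more alike than those of the sea urchin. A peak of the other replicate overlapped 80.7% and 75.7% of the sea star peaks and 49.2% and 65.4% of the sea urchin peaks. Where peaks overlapped, the summits of the replicates lay a median of 28 bp apart in sea star and 35 bp in sea urchin. Window counts of the replicates had a Spearman correlation of 0.939 over the 12099 sea star windows and 0.769 over the 18039 sea urchin windows, a description that also reflects the number of peaks. Windows with 10 or more peaks in both replicates numbered 1607 in sea star and 34 in sea urchin, and windows empty in both were 16.9% and 26.5%. The comparison of species therefore rests on a closer pair of libraries in the sea star, and each comparison was also made on peaks that overlapped a peak of the other replicate. On those peaks the full lists kept the direction of all 5 measures. The ratio of widths fell from 1.34 to 1.09, with mean medians of 263 bp in sea urchin and 286 bp in sea star. On equal numbers of those peaks the share in runs was 11.9% on average in sea urchin and 11.7% in sea star, and the species overlapped.

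The species difference was not restricted to this stage. Over all stages in the series, the 8 sea urchin libraries had median widths of 129 to 241 bp and the 6 sea star libraries 250 to 260 bp. Their median spacing was 5985 to 18798 bp and 3177 to 4153 bp. The share of peaks in runs was 11.3 to 31.8% in sea urchin and 44.3 to 54.9% in sea star, and the share of close pairs 5.86 to 9.66% and 3.07 to 4.01%. No library of either species fell within the range of the other in any of these, on full lists. Close pairs in the sea urchin were 8.86 and 9.66% at 24 hpf against 5.86 to 9.11% at the other stages, so replicate 2 lay above all of these and replicate 1 within them.

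Loci that can be matched between the species were examined in 50 kb windows. The study lists transphyletic elements, which are open regions whose sequence is conserved between phyla, with a position in each genome. Of the 111 rows held here, 44 elements had both positions, and they fell into 39 loci, of which 38 had complete windows in both genomes. The elements were chosen by the study from its own peaks and only part of its list was used, so the counts are a description without a test. The median count at these loci was 5.5 and 5 peaks in sea urchin and 9 and 8.5 in sea star, against 2, 1, 4 and 4 over all windows of the same libraries. Both sea star counts exceeded both sea urchin counts at 23 of the 38 loci, both sea urchin counts were the higher at 4, and the counts overlapped at 11.

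The excess of sea star peaks was smaller at matched loci than across the genome. However, each window was centred on an element that the study had chosen from its own peaks. A peak at the element adds relatively more where windows hold few peaks, as in the sea urchin. The contrast thus follows at least in part from the choice and is no separate finding. The mean count at the loci was 5.68 and 4.97 in sea urchin and 9.13 and 9.18 in sea star, which is 2.61 and 2.90 times the mean over all windows in sea urchin and 1.87 and 1.76 times in sea star. With equal numbers of peaks per library, the sea star was higher at 14 loci and the sea urchin at 12, and the counts overlapped at 12. The means were then 5.05 and 4.97 in sea urchin and 6.05 and 5.95 in sea star.

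**Figure D5:**
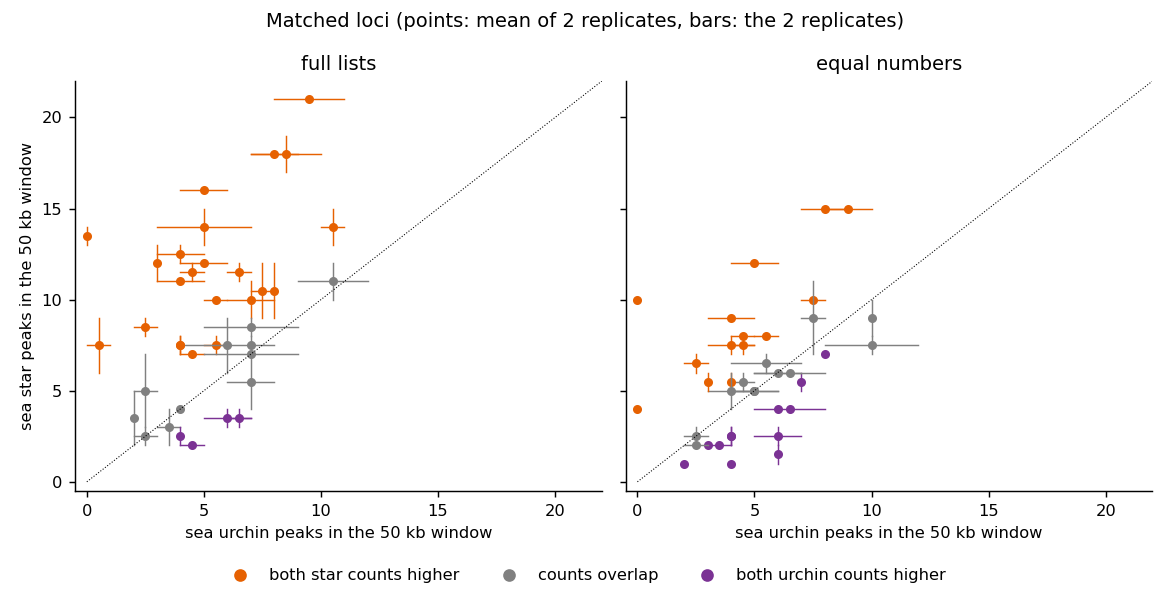
Peaks in 50 kb windows around 38 loci placed in both genomes at 24 hpf, sea urchin on the horizontal and sea star on the vertical axis, on full lists (left) and on equal numbers of peaks (right). Points are means of 2 replicates, bars join the replicates and the dotted line marks equal counts. Sea star counts were the higher at 23 loci on full lists (orange) and at 14 on equal numbers, and sea urchin counts (purple) at 4 and 12.

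The named loci show the range. Each is called by the sea urchin gene listed on the upstream side of the element, which need not be its target. Around the element at Msx, a homeobox gene, the windows held 11 and 10 peaks in sea urchin and 13 and 15 in sea star, so a locus dense in one was dense in the other, and on equal numbers the counts overlapped. At H2A.F/Z, which encodes a histone variant, there were 5 and 6 peaks in sea urchin and 10 in both sea star replicates, a difference that held on equal numbers. At HMG1, a gene for a chromatin protein, there were 7 and 8 against 12 and 9 peaks, and the order was lost on equal numbers. At eef1G, which encodes a subunit of a translation elongation factor, there were 3 and 2 peaks against 7 and 3, and the species overlapped. Near the element assigned to gnaq, which encodes a G protein subunit, there were 8 and 6 peaks in sea urchin and 7 and 4 in sea star, and on equal numbers the sea urchin had 6 in each replicate and the sea star 4. The element itself was called in both sea star libraries and in neither sea urchin library, although its sea urchin window was above the median of all windows.

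At the elements themselves the peaks were wider in sea star, but they come from the same lists and are no separate support. The study chose the elements from its own peaks, so how many were called here is in part set by that choice. Where several peaks overlapped an element, the widest was taken. Of the 44 elements, the sea urchin libraries had a peak at 32 and 31 and the sea star libraries at 37 and 36, and at 25 all 4 had one. Over these 25 the median width was 423 and 345 bp in sea urchin and 559 and 556 bp in sea star, and the median fold enrichment 6.98 and 6.85 against 8.18 and 8.80. Both sea star peaks were wider than both sea urchin peaks at 16 of the 25 and narrower at 2, with overlap at 7. At H2A.F/Z the peaks were 362 and 406 bp wide in sea urchin and 627 and 556 bp in sea star. The eef1G element was 1 of the 2 exceptions, with 646 and 611 bp in sea urchin and 454 and 606 bp in sea star. At HMG1 the replicates differed more than the species, with 999 and 586 bp in sea urchin and 496 and 1270 bp in sea star, and at Msx the widths were 631 and 338 bp against 736 and 576 bp.

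Developmental genes were examined in the sea urchin alone, for which the study lists tested enhancers with their positions. Not all of them are genes of this stage, endo16 for example being a marker of later ones. Windows of 50 kb were centred on the tested elements of 22 genes, and since such elements were sought out as enhancers, their counts are a description. The median count was 6 and 3.5 peaks, against 2 and 1 over all windows, and 16 of the 22 windows lay above the median of all windows in both replicates. Over all sea urchin windows, 64.2% held fewer than 3 peaks in replicate 1 and 56.2% held fewer than 2 in replicate 2. Windows above the median were thus a minority in each replicate, and their share in both together was not computed. The count was lower in replicate 2, which has the shorter list, at 18 genes, equal at 2 and higher at 2.

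The densest of these windows were at genes for transcription factors. The window at otx2, a homeobox gene of endoderm and anterior ectoderm, held 17 and 12 peaks, more than 99.99% and 99.96% of all sea urchin windows, and 16 and 4 of these peaks lay in runs. That at foxa1, a forkhead gene of the endoderm, held 12 and 11 peaks, and that at sox14, a gene of the Sox family, 12 and 10. These 3 were the windows with at least 10 peaks in both replicates. At prdm1, a zinc finger gene of the early endomesoderm also known as blimp1, replicate 1 had 12 peaks and replicate 2 had 3, so this window was dense in 1 library only.

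The skeletogenic genes, which belong to the primary mesenchyme lineage, had a median of 6 and 2 peaks over 5 windows. Their expression at this stage was not measured here. Among them alx1, the homeobox gene at the head of the skeletogenic programme, had 9 and 6 peaks, more than 98.1% and 94.7% of all windows, with none of them in a run. The window at tbr1, a T-box gene, had 6 and 2 peaks and that at sm50, which encodes a spicule matrix protein, 7 and 3. At sm30a, another spicule matrix gene, there were 2 peaks in both replicates, and at LOC115920638, named KirrelL by the study, 2 and 1. The windows at alx1 and sm50 were thus the fullest of the list in both replicates.

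The endoderm and gut genes had a median of 7 and 4.5 peaks over 8 windows. Beside otx2, foxa1 and prdm1, the window at gata6, a zinc finger gene of the endoderm, had 7 and 6 peaks and that at the homeobox gene Hbox7 had 7 and 5. There were 6 and 3 at wnt8a, which encodes a Wnt ligand of the early endomesoderm, and 5 and 4 at pdx1l, a homeobox gene of the gut. At endo16, a marker of the midgut in later stages, there was no peak in replicate 1 and 1 in replicate 2. Neither of its 2 tested elements is marked as uniquely mapped in the study's list, which also holds for the element at sm30a, and its part in the low counts was not tested.

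The other lists were near these. The ectoderm genes had a median of 6.5 and 4 peaks over 4 windows. Among these, nodall, which encodes the Nodal ligand of the oral side, had 8 and 5, the forkhead gene foxb1 had 9 and 4, LOC100888959 (Spec2a) had 5 and 4, and CyIIIa, an actin gene of the aboral ectoderm, had 2 and 3. The neural and apical genes had 12 and 10 peaks at sox14 and 4 and 2 at onecut2, a gene of the ciliary band. The non-skeletogenic mesoderm genes were lowest, with a median of 4 and 1 over 3 windows. At gcml, a regulator of pigment cells, both replicates had 4 peaks, at LOC588806 (Pks1), a pigment gene, 3 and 1, and at dll1.a, which encodes the ligand Delta, 5 and 0. The ranges of the 5 lists overlapped in both replicates.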

How the data were processed

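Peak lists from ATAC-seq of whole embryos were analysed for the 4 libraries at 24 hpf, among 14 in the series. According to the study's methods, Bowtie2 placed read pairs on the genome of the species (Spur_5.0 or Pmin_3.0), SAMtools removed duplicates, read starts were shifted to the transposase cut, and MACS2 called peaks per replicate from nucleosome-free fragments. The deposited lists give, per peak, positions, a score, a fold enrichment (a ratio), and the −log10 p-value and −log10 q-value that the authors' peak caller wrote. The weakest peak had a q of 0.0451 in both sea urchin libraries and of 0.0151 and 0.0464 in the sea star libraries, and depth in reads was not used.

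Computations used pandas 2.3.3, numpy 2.4.6 and scipy 1.17.1 under Python 3.11.15, and figures matplotlib 3.10.9. Measures were computed per library after removing mitochondrial peaks, with libraries as replicates, and species were compared by two-sided exact permutation tests. The layout code was tested on simulated data. Scaffold length was taken as the end of the last peak of the species. Alternatives were a q of at most 0.001, peaks overlapping the other replicate, peaks joined within 100 bp, scaffolds of at least 10 Mb, mitochondrial peaks kept, ranking by fold enrichment, equal peaks per Mb, other windows and run limits, each replicate left out, and the replicate number as a block. The close-pair measure, and equal density after joining, were added after seeing the data.

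Named regions were the 3 densest windows, the 3 widest peaks and the longest chain per species, by the lower replicate. Named loci were transphyletic elements with a gene symbol, of which 1 is not reported here, and the sea urchin genes of 5 lists. Positions and names of elements came from the study's supplementary tables, one of them held in part. Members and lists were chosen with earlier results of these data known.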

Additional observations from a re-analysis of the deposited data

Results flagged for a closer look

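The mitochondrial genome was left out of every measure of layout. The sea urchin lists held 8 mitochondrial peaks in replicate 1 and 9 in replicate 2 at 24 hpf, and 8 to 11 in the libraries of the other stages. The sea star lists named no mitochondrial scaffold, so no value is given for that species. These peaks drew attention because they are a signal outside the nuclear scaffolds that were compared.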

How the results depend on the processing

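On full lists, all 62 alternative values of the 5 measures kept the direction of the species difference, without overlap of the species. On equal numbers 54 of 61 did, not counting mean peaks per window, whose order is set by the length of the genome. The share of peaks in runs (29.6 percentage points higher in sea star on full lists, 5.86 on equal numbers) turned to −0.255 points when peaks had to overlap the other replicate, −4.56 with peaks ranked by fold enrichment, −4.07 at equal peaks per Mb and −2.31 with a run limit of 2 kb. The ratio of sea star to sea urchin fell below 1 for the variance to mean ratio, to 0.983 with ranking by fold enrichment and 0.994 at equal peaks per Mb, and median spacing rose to a ratio of 1.03 at equal peaks per Mb. The cause was not tested. Over the 7 alternatives keeping all libraries, the ratio of widths on full lists was 1.09 to 1.35. With each replicate left out, the ratio of widths on full lists was 1.23 to 1.48 and that of spacing 0.320 to 0.425, and the difference in runs was 27.1 to 32.2 points. On equal numbers these were 1.51 to 2.01, 0.643 to 0.675 and 5.33 to 9.52 points, the last without sea urchin replicate 2, where a longer equal list was used.

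The labels do not tie replicate numbers together across the species. With the replicate block, the ratio of widths was 1.35 on full lists and the difference in runs 29.6 points, and no direction changed, though 2 pairs cannot give a p below 0.5. The close-pair difference of −5.97 points stayed between −8.59 and −3.80 under its 8 alternatives.

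With 2 libraries per species no test can pass 0.05. Lists end at a threshold, so closed chromatin was not measured where a peak is missing, and species, read depth and genome assembly cannot be told apart in these lists.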
